A study of Mus musculus with 18 samples.

Results

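HC and HH mice share the nuclear genome of C3H/HeN and differ in their mitochondrial DNA (mtDNA). Strains are written with the nuclear genome first and the mtDNA second, with C for C57BL/6J and H for C3H/HeN. HC is a mitochondrial-nuclear exchange (MNX) strain, made by pronuclear transfer and bred in-house, and carries mtDNA C. HH is wild-type C3H/HeN from a vendor and carries mtDNA H. The members were the 3 HC and 3 HH liver libraries, 6 of the 18 in the series, chosen by genotype alone. All 6 came from adult female mice, and small RNA was pooled, then treated to strip methyl groups from bases and to free blocked RNA ends. The labels do not tie a library to animals, so p-values measure the spread between libraries. Because HH is wild type and HC is MNX, the origin of the mice and the mtDNA type cannot be told apart in this comparison. The exchange also replaces the whole mtDNA, not only the gene described here. In liver RNA, a change in the cells present and a change in RNA per cell cannot be told apart. The table holds reads of 1 tRNA only, so the tissue could not be checked against its markers.

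The reads are fragments of mt-TR, the mitochondrial tRNA for arginine, which delivers arginine to growing proteins on mitochondrial ribosomes. After transcription, the ends of a tRNA precursor are trimmed and the trinucleotide CCA, to which the amino acid is attached, is added to the 3′ end. Cleavage of a tRNA leaves tRNA-derived fragments (tRF), and a fragment that keeps nt 1 or the CCA retains one of the natural ends of the molecule.

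The gene, mt-Tr (ENSMUSG00000064361.1), has 1 exon and lies on the plus strand at chrM:9808-9875 of mm10 in GENCODE M21. Its mtDNA C sequence has a run of 3 T from 9818 to 9820, followed by a run of 8 A from 9821 to 9828. Both runs are 1 base longer in mtDNA H, so mature mt-TR with its CCA has 71 nt in C and 73 nt in H. The mature molecules are shown because these runs are the difference that the exchange makes within the gene, with the runs in capitals. The C sequence equals the GENCODE transcript plus CCA, and the H sequence was read from the study's list of fragments.
mature mt-TR, C: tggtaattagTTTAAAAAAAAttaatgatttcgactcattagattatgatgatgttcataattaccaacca
mature mt-TR, H: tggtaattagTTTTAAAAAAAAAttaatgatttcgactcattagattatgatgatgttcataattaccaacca

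Nucleotides are numbered in the mature mt-TR of the library's own mtDNA. The 2 fragments that dominated several libraries begin at nt 1. One ends 19 bases before the mature end, at nt 52 in C and nt 54 in H, inside the T loop, and this end is called the site. The other ends 28 bases before the mature end, at nt 43 in C and nt 45 in H. Both span the T and A runs (capitals), so each is 2 bases longer in HH.
nt 1 to site, C: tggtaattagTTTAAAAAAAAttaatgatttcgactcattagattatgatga
nt 1 to site, H: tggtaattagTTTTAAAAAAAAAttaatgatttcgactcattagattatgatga
nt 1 to 28 short, C: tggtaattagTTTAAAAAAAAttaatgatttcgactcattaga
nt 1 to 28 short, H: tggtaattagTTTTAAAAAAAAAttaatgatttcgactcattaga

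A further abundant fragment ended at the site but began at nt 11, the first T of the run (capitals). It is shown with its neighbour from nt 12, because the share of reads between these starts separated the HC and HH libraries.
nt 11 to site, C: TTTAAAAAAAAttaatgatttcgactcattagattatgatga
nt 12 to site, C: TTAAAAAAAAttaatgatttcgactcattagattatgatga
nt 11 to site, H: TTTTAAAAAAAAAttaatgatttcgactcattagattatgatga
nt 12 to site, H: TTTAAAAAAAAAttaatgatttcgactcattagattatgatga

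At the other end of the molecule, fragments that ended with CCA began at many places. The one from C nt 29 or H nt 31, just past the 5′ strand of the anticodon stem, is shown because it led HC replicate 1 and HH replicate 1. It lies past both runs and is therefore the same 43 nt in both mtDNA types.
CCA-ended, C nt 29 or H nt 31: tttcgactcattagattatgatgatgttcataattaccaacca

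The HC libraries held 733, 1547 and 7903 reads of 40 to 69 nt, and the HH libraries held 4233, 6596 and 3578. A fragment with 0 reads could therefore make up as much as 0.409% of HC replicate 1, if 3 reads are taken as the limit, and as little as 0.0380% of HC replicate 3. The shares below are percentages of these reads in each library. Intervals are 95% Wilson intervals, which cover counting error only.

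The libraries of one strain did not resemble each other more than those of the other. HC replicates 2 and 3 and HH replicate 2 were dominated by fragments that begin at nt 1, whereas CCA-ended fragments were the commonest class in HC replicate 1 and HH replicates 1 and 3. Distances between libraries were taken only over fragments that mtDNA C and H could both yield at 40 to 69 nt, with shares recalculated among their reads. This left out 0.0646% to 11.4% of a library's reads, which can lower the distances between HC and HH. The share of the remaining reads that would have to move between fragments to make libraries equal was 33.9% between HC replicates 2 and 3. It was 62.8% and 68.8% between HC replicate 1 and each of them. HC replicate 1 stood only 30.0% from HH replicate 3, and HC replicate 3 only 29.1% from HH replicate 2. Within HH, the distances were 24.3%, 45.9% and 59.3%. HC replicate 1 was the shallowest library. Fragments that held 50% of the reads numbered 16 in HC replicate 1 but 2 in each of HC replicates 2 and 3, and 14, 5 and 17 in HH replicates 1 to 3.

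Nt 1, the mature 5′ end, was the most frequent start in every library. Reads from nt 1 made up 29.1%, 70.0% and 56.3% of HC replicates 1 to 3 and 13.1%, 45% and 27.1% of HH replicates 1 to 3. HC averaged 51.8% ± 20.8 (SD, n = 3) and HH 28.4% ± 16 (SD, n = 3), and the groups overlapped because HC replicate 1 lay below HH replicate 2 (two-sided exact permutation test, p = 0.2, adjusted p = 0.32 over 8 measures). With 3 libraries against 3, the smallest p this test can give is 0.1, so none of the 8 measures could pass 0.05.

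The start at nt 11 came next in the HC libraries and in HH replicates 2 and 3. Its shares were 9.28%, 12% and 24.6% in HC and 5.48%, 12.5% and 4.72% in HH, where replicate 2 exceeded HC replicates 1 and 2. The means were 15.3% ± 8.20 and 7.56% ± 4.27 (SD, n = 3 each; exact permutation p = 0.3, adjusted p = 0.40). Starts at nt 2 to 10 overlapped as well, at 10.9% ± 6.08 in HC and 9.94% ± 2.09 in HH.

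Starts within the runs were more frequent in HH. Reads beginning in the A run made up 14.5%, 2.52% and 5.34% of the HC libraries and 28.5%, 13% and 23.7% of the HH libraries, with HC replicate 1 above HH replicate 2. Reads beginning in the T run past nt 11 made up 9.0%, 3.36% and 3.68% of HC and 15%, 11.3% and 10.9% of HH. This was the class in which HC and HH did not overlap, 1 of 13 start and end classes (7.69%). The class holds 3 positions in H but 2 in C. With nt 14 of H left out, the HH shares were 9.40%, 9.73% and 6.90% and overlapped with HC, so the separation rested on the base that H has in addition.

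**Figure D1:**
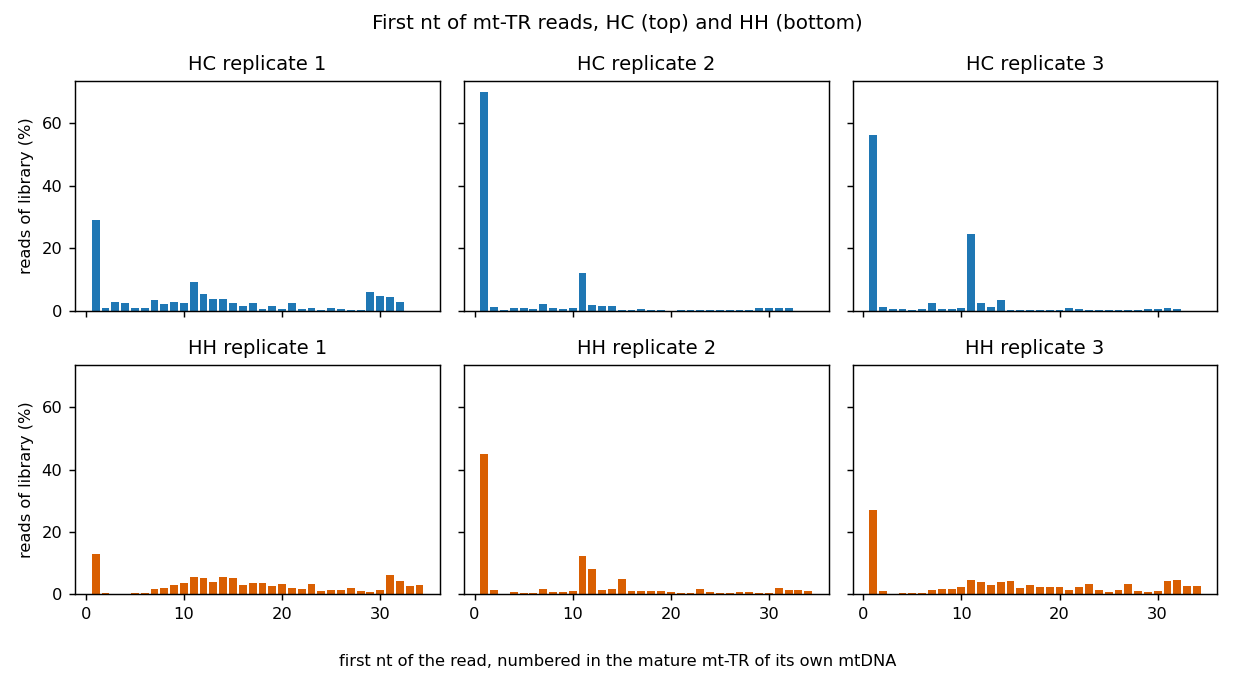
Percentage of each library's mt-TR reads (y axis) by the first nt of the read (x axis, numbered in its own mature mt-TR), for HC replicates (top, blue) and HH replicates (bottom, orange). Nt 1 reaches 70.0% in HC replicate 2 and 13.1% in HH replicate 1, and starts past nt 11 are spread out in HC replicate 1 and in HH.

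The 3′ ends fell into 3 main classes, the CCA end, the site and the end 28 bases short. The CCA end was present on 52.9% (95% interval 49.3% to 56.5%), 13.4% and 10.2% of reads in HC replicates 1 to 3 and on 74.3%, 27% and 55.7% in HH replicates 1 to 3. HC replicate 1 again lay among the HH libraries. The means were 25.5% ± 23.8 in HC and 52.3% ± 23.8 in HH (SD, n = 3 each; exact permutation p = 0.2, adjusted p = 0.32).

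Reads that stop at the site, in the T loop, accounted for 6.96%, 35.8% and 62.4% of HC and for 2.46%, 42.7% and 10.6% of HH. The highest value and the next to lowest of the 6 libraries both belonged to HC. The means of 35.1% ± 27.7 and 18.6% ± 21.3 differed by less than the spread between replicates (SD, n = 3 each; exact permutation p = 0.6). Their difference of 16.5 percentage points became 2.81 without HC replicate 3 and 8.41 without HH replicate 1, but 30.5 without HC replicate 1 and 28.5 without HH replicate 2. The end 28 bases short was found on 4.37%, 34.3% and 14.4% of reads in HC and on 1.28%, 11.6% and 3.55% in HH, and HC replicate 1 lay below HH replicate 2. Reads that ended 1 to 3 bases short of the mature end, and so without the whole CCA, ranged from 1.03% to 7.24% over the 6 libraries.

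**Figure D2:**
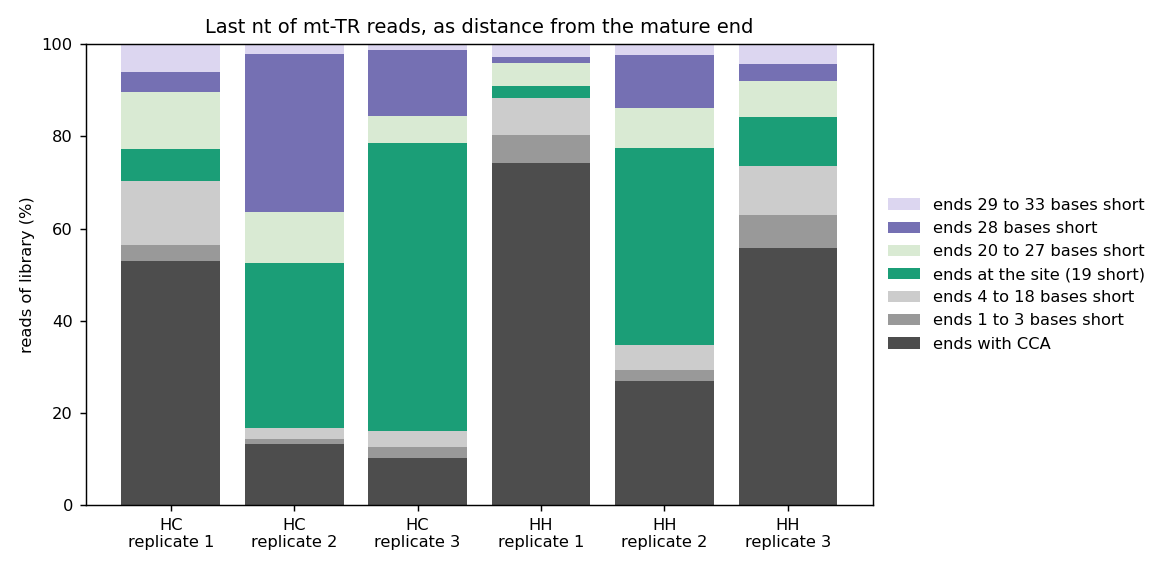
Stacked bars of the percentage of reads in each of 6 libraries (y axis) by the distance of the last nt from the mature end; the bars add up to 100%. CCA-ended reads range from 10.2% in HC replicate 3 to 74.3% in HH replicate 1, and site-ended reads from 2.46% in HH replicate 1 to 62.4% in HC replicate 3.

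No read ran from nt 1 to the CCA, since mature mt-TR is longer than the reads held. Of the reads from nt 1, those that stopped at the site were 7.51%, 32.2% and 59.7% in HC and 7.94%, 49.98% and 24.5% in HH. The site and the end 28 bases short together took 20.2%, 79.9% and 84.4% of the nt 1 reads in HC, and 17.7%, 73.8% and 36.8% in HH. In the libraries with few nt 1 reads, those reads therefore also stopped at many other positions.

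Taken as a whole fragment, nt 1 to site made up 2.18% (1.35% to 3.52%), 22.6% (20.5% to 24.7%) and 33.6% (32.6% to 34.7%) of HC replicates 1 to 3. It made up 1.04% (0.775% to 1.39%), 22.5% (21.5% to 23.5%) and 6.65% (5.88% to 7.52%) of HH replicates 1 to 3. It led HC replicate 3, HH replicate 2 and HH replicate 3. The means were 19.5% ± 15.9 and 10.1% ± 11.1 (SD, n = 3 each; exact permutation p = 0.4, adjusted p = 0.457). Their difference of 9.39 percentage points was 2.31 without HC replicate 3 and 18.03 without HC replicate 1. HC replicate 2 and HH replicate 2 differed by less than their counting intervals. The fragment from nt 1 to 28 short led HC replicate 2, with 3.68%, 33.4% and 13.9% in HC and 1.28%, 10.7% and 3.33% in HH. The fragment from nt 11 to the site took 3.55%, 8.99% and 22.4% in HC and 0.543%, 9.55% and 1.93% in HH.

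Read lengths followed from these ends and from the 2 bases that H has in addition. The fragment from nt 1 to the site has 52 nt in HC, a length that 22.6% and 33.8% of reads had in HC replicates 2 and 3. In HH it has 54 nt, the length of 23.5% and 9.11% of reads in HH replicates 2 and 3. The mean read length was 50.9, 47.4 and 47.9 nt in HC and 53.4, 50.1 and 51.8 nt in HH, and HC replicate 1 was longer on average than HH replicate 2. The mean difference was -3.03 nt, from 48.7 ± 1.88 to 51.8 ± 1.66 (SD, n = 3 each; exact permutation p = 0.2). Of this, 2 nt are the difference in mature length. The remaining 1.03 nt is the larger number of bases missing from both ends together in HC. Missing bases are counted in each type's own molecule. A homologous read that begins past the runs is not longer in HH, so the split depends on this numbering.

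The 2 ends contributed in opposite directions. HC reads lacked 11, 3.51 and 4.92 bases at the 5′ end on average, and HH reads 15.7, 8.09 and 13.5. At the 3′ end, HC reads lacked 9.14, 20.1 and 18.2 bases and HH reads 3.89, 14.8 and 7.63. The mean 5′ loss was 6.47 ± 3.96 in HC and 12.5 ± 3.94 in HH, and the mean 3′ loss 15.8 ± 5.84 and 8.79 ± 5.57 (SD, n = 3; exact permutation p = 0.2 for both). HC replicate 1 overlapped with HH in both.

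Reads of 40 to 45 nt were 41.7%, 56.1% and 47.5% of HC and 25.02%, 40.7% and 29.1% of HH. The groups did not overlap, but HC replicate 1 and HH replicate 2 differed by less than their counting intervals. The window was chosen after the lengths had been seen. A homologous fragment across the runs is 2 nt longer in HH and can leave the window for that reason alone.

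**Figure D3:**
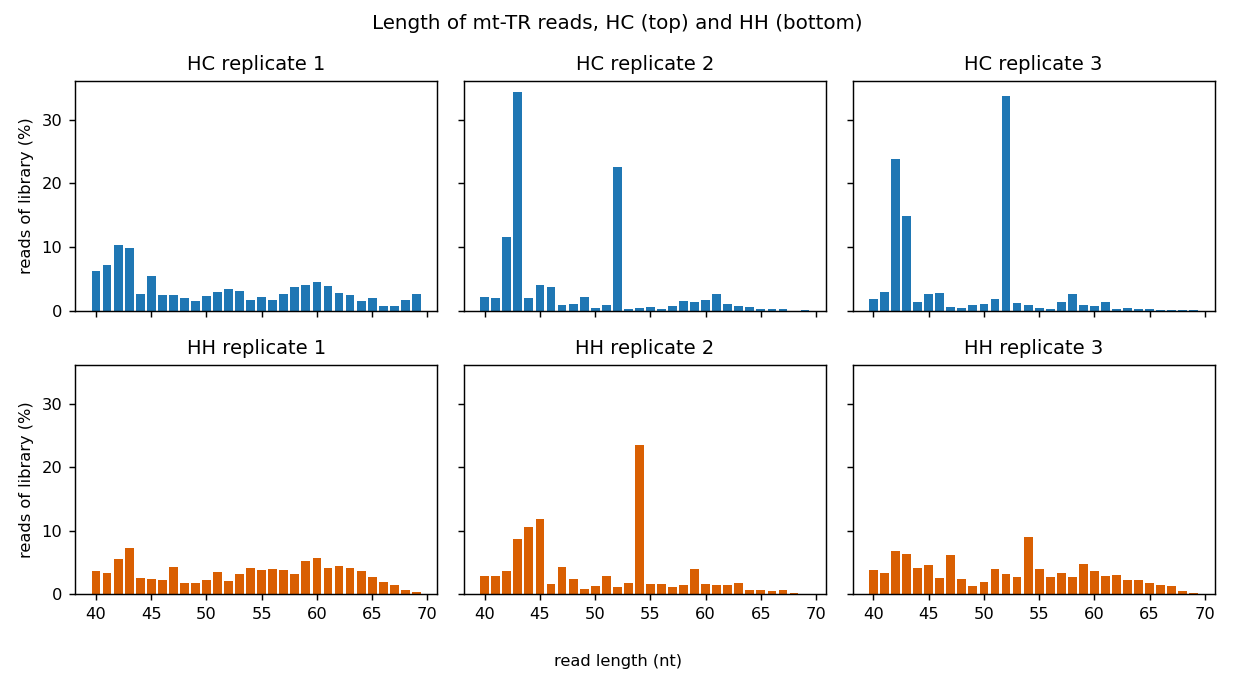
Percentage of each library's reads (y axis) by read length in nt (x axis), for HC (top, blue) and HH (bottom, orange). The peak of nt 1 to site lies at 52 nt in HC and 54 nt in HH, and is the highest in HC replicate 3 (33.8% of reads at 52 nt).

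To compare single fragments, reads of all 18 libraries were assigned to homologous fragments, with the same first base in an alignment of the mtDNA types and the same distance from the mature end, and fitted together with edgeR's quasi-likelihood test. HC and HH held reads of 407 of 527 fragments, a count that includes those not every mtDNA type could list. Only the 450 that all types could list entered the fit. HH reads that begin at the additional bases of H were therefore not tested. Of the 450, 67 passed the filter on low counts. None of the 67 (0%) passed an adjusted p of 0.05 between HC and HH, and 12 (17.9%) had an unadjusted p under 0.05. TMM scaling called 6 of 67 (8.96%), 2 higher and 4 lower in HC, and DESeq2 called 8 of 67 (11.9%), 7 higher and 1 lower. Over all 67 fragments the median log2 fold change of HC against HH was -0.37 with totals as library sizes, -0.05 with TMM and 0.65 with DESeq2's size factors, so directions are relative to this shift. Without HC replicate 1 the test called 19 of 77 fragments (24.7%), 18 of them lower in HC, and without HH replicate 2 it called 9 of 75 (12%), 7 of them lower. Without both, it called 36 of 75 (48%), but these are the libraries that lay among the other strain, so that count follows from their removal. The other 4 libraries could each be left out with 0 calls.

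Within each of the 3 main 3′ end classes, fragments mostly had fold changes of the same sign. Of 28 CCA-ended fragments tested, 26 had a negative log2 fold change and 10 an unadjusted p under 0.05, all 10 lower in HC, with a median of -1.31. That median was -0.94 with TMM and -0.24 with DESeq2, in each case below the median of all fragments. The signs depended on the scaling, since DESeq2 gave 19 negative and 9 positive values and called 2 of the 28 higher and 1 lower in HC, whereas TMM gave 25 negative and 3 positive values and called 4, all lower. Of 11 site-ended fragments, 10 had a positive fold change and 1 an unadjusted p under 0.05, with a median of 0.56. The 3 fragments that end 28 bases short were also positive, with a median of 1.17. The other end classes were mixed. Those that end 1 to 3 bases short had 2 positive and 3 negative values, and those 4 to 18 short had 4 and 5. Those 20 to 27 short had 6 positive and 2 negative values, and those 29 to 33 short had 1 and 2. Shares of one library add up to 100%, so these classes cannot move independently.

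The dominant fragments carried wide errors. The log2 fold change of HC against HH was 0.96 ± 0.98 (SE) for nt 1 to site, with an edgeR adjusted p of 0.594. It was 1.73 ± 0.91 for nt 1 to 28 short and 1.55 ± 0.92 for nt 11 to site, with adjusted p-values of 0.278 and 0.302. For these fragments, HC replicate 1 was below HH replicate 2 in every case. Single libraries moved these values: nt 1 to site ranged from 0.30 without HC replicate 3 to 2.35 without HH replicate 2, and nt 1 to 28 short from 0.79 without HC replicate 2 to 2.89 without HH replicate 2. The value of nt 11 to site ranged from 0.65 without HC replicate 3 to 3.25 without HH replicate 2, where its edgeR adjusted p was 0.0289. The CCA-ended fragment from C nt 29 or H nt 31 took 5.59%, 0.776% and 0.367% in HC and 5.72%, 1.97% and 3.75% in HH, a log2 fold change of -0.84 ± 0.95 (edgeR adjusted p = 0.626). Without HC replicate 1 it was -2.79, with an edgeR adjusted p of 0.0408, and without HC replicate 3 it was -0.29.

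The smallest p-values of lower fragments belonged to CCA-ended reads that begin from the A run to the end of the 5′ strand of the anticodon stem. The fragment from C nt 28 or H nt 30, the last base of that strand, made up 0.136%, 0.0646% and 0.0886% of HC and 1.3%, 0.303% and 1.01% of HH, or 1, 1 and 7 reads against 55, 20 and 36. All HC libraries lay below all HH libraries, and the log2 fold change was -3.24 ± 1.02 (edgeR adjusted p = 0.0740). The fragment from C nt 24 or H nt 26, the first base of the strand, had 0.273%, 0.0646% and 0.0886% in HC and 1.16%, 0.561% and 1.12% in HH. The fragment from C nt 18 or H nt 20, within the A run, had 0.546%, 0.129% and 0.202% in HC and 2.69%, 0.697% and 1.93% in HH. Neither overlapped between the strains, and their log2 fold changes were -3.04 ± 0.96 and -2.78 ± 0.88 (edgeR adjusted p = 0.0740 for both). None of the 3 passed the threshold with all libraries and totals as library sizes. All 3 passed without HC replicate 1 and without HH replicate 2, with edgeR adjusted p-values of 0.0113 to 0.0289. With TMM, the fragments from C nt 24 and C nt 18 had edgeR adjusted p-values of 0.0483 and 0.0491, and that from C nt 28 had 0.0509. None of the 3 passed with DESeq2. There the log2 fold changes from C nt 28, C nt 24 and C nt 18 were -1.40, -1.47 and -1.19 (DESeq2 adjusted p = 0.0960, 0.0708 and 0.0823).

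In the other direction, the smallest p-values were those of site-ended reads from nt 6 and nt 7, at the end of the acceptor stem, and of reads from C nt 14 or H nt 16 that end 1 base short of the mature end. The fragment from nt 6 to the site had 0, 6 and 21 reads in HC and 1, 3 and 2 in HH, and its log2 fold change was 2.52 ± 0.97 (edgeR adjusted p = 0.116). It passed with TMM (3.36, edgeR adjusted p = 0.0304), with DESeq2 (4.22, adjusted p = 0.00878) and without HC replicate 1 (2.87, edgeR adjusted p = 0.0295). The fragment from nt 7 to the site was more abundant, with 0.409%, 1.55% and 1.91% in HC and 0.142%, 0.955% and 0.168% in HH, and a log2 fold change of 1.63 ± 0.81 (edgeR adjusted p = 0.264), which was 3.11 without HH replicate 2 (edgeR adjusted p = 0.0289). HC replicate 1 lay among the HH libraries for nt 7 to the site, and its 0 reads for nt 6 to the site allow a share above that of every HH library. The third had a log2 fold change of 1.48 ± 0.78 (edgeR adjusted p = 0.278), which became -0.13 when the additional bases of H were placed at the right of both runs and 0.42 without HC replicate 3. It passed with TMM (2.63, edgeR adjusted p = 0.0383) and with DESeq2 (3.55, adjusted p = 0.0117).

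**Figure D4:**
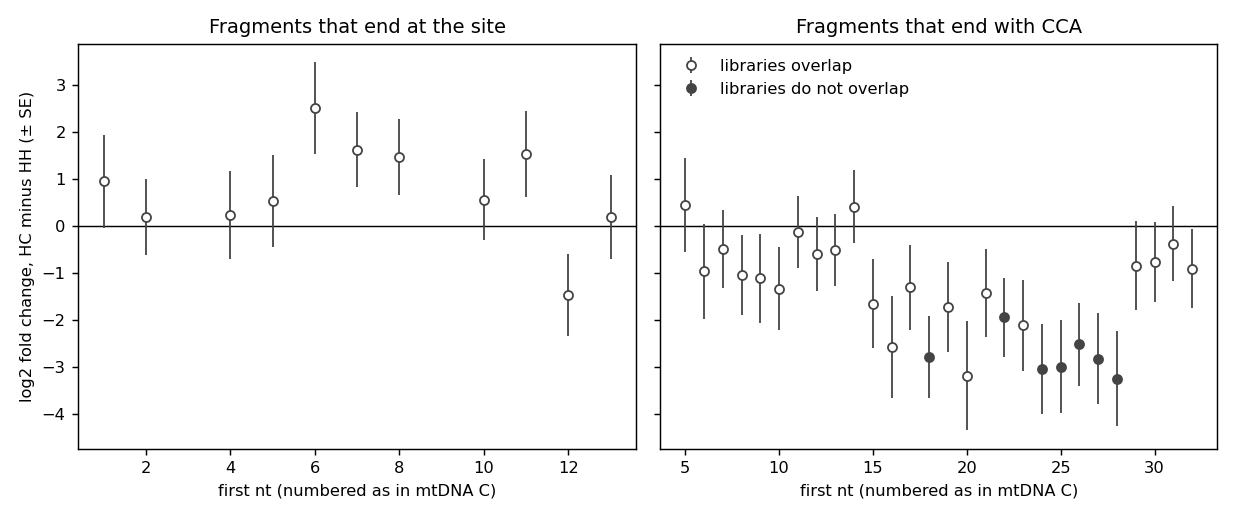
log2 fold change of HC against HH from edgeR (y axis, bars are ± SE) by the first nt of the fragment (x axis, numbered as in mtDNA C), for 11 site-ended fragments (left) and 28 CCA-ended fragments (right). Filled points mark fragments whose HC and HH libraries do not overlap in share; 10 of the 11 site-ended values are above 0 and 26 of the 28 CCA-ended values below it, and none passed an adjusted p of 0.05.

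The shares of 12 of the 67 tested fragments (17.9%) did not overlap between HC and HH. CCA-ended fragments made up 7 of them, of 28 tested and all lower in HC, and no site-ended fragment was among them. Those that end 4 to 18 bases short made up 4, of 9 tested, with 3 lower and 1 higher in HC. The remaining 1 ended 1 to 3 bases short and was lower in HC. Starts in the 5′ strand of the anticodon stem (C nt 24 to 28, H nt 26 to 30) stood out within the CCA-ended reads. They made up 3.09%, 3.38% and 4.48% of the CCA-ended reads in HC replicates 1 to 3, and 8.55%, 9.65% and 12.3% in HH replicates 1 to 3. HC replicate 1, which resembled HH in most measures, lay with the other HC libraries here. The groups did not overlap, with means of 3.65% ± 0.731 and 10.2% ± 1.92 (SD, n = 3 each), though the HC shares rest on 12, 7 and 36 reads. This class was chosen after its values had been seen, so it was not tested. Starts just past the stem, in the anticodon loop, overlapped, at 30.9%, 24.2% and 19.4% in HC and 20.5%, 21.4% and 23.2% in HH.

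Within the site-ended reads, the choice between nt 11 and nt 12 also separated the strains. Of the site-ended reads that began at nt 11 or nt 12, nt 12 took 13.3% (5.31% to 29.7%), 3.47% (1.49% to 7.87%) and 6.78% (5.74% to 8.0%) in HC replicates 1 to 3. It took 41.0% (27.1% to 56.6%), 39.2% (36.3% to 42.2%) and 28.1% (20.1% to 37.8%) in HH replicates 1 to 3. The groups did not overlap, with means of 7.86% ± 5.02 and 36.1% ± 6.98 (SD, n = 3 each), while HC replicate 1 rested on 30 reads and HH replicate 1 on 39. This pair of starts was chosen after the values had been seen and was not tested. Of 34 pairs of neighbouring starts among site-ended or CCA-ended reads, with reads in all 6 libraries, 9 (26.5%) did not overlap between HC and HH. Some pairs rested on as little as 1 read in a library. In the CCA-ended reads the split between nt 11 and nt 12 was 53.2%, 33.3% and 32.2% in HC and 51.2%, 44.2% and 54.7% in HH, which overlapped.

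The numbering decides what this split compares. Because H has 4 T in the run and C has 3, a read from nt 12 begins with 3 T in H but 2 T in C. As listed, HH reads from nt 11 and nt 12 with the same end carry the same letters. They differ only in the dashes before them, so the HH split rests on those dashes. When reads are instead matched by the number of T they keep, the share of reads with 2 T among site-ended reads with 2 or 3 T was 13.3%, 3.47% and 6.78% in HC and 5.88%, 6.02% and 12.9% in HH, with means of 7.86% and 8.27%. Counted in this way, the strains overlapped. Within these starts, HH site-ended reads thus began at nt 11 or at nt 12, with 4 or 3 T, and seldom with 2, whereas those of HC began at nt 11, with 3 T, and seldom at nt 12.

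**Figure D5:**
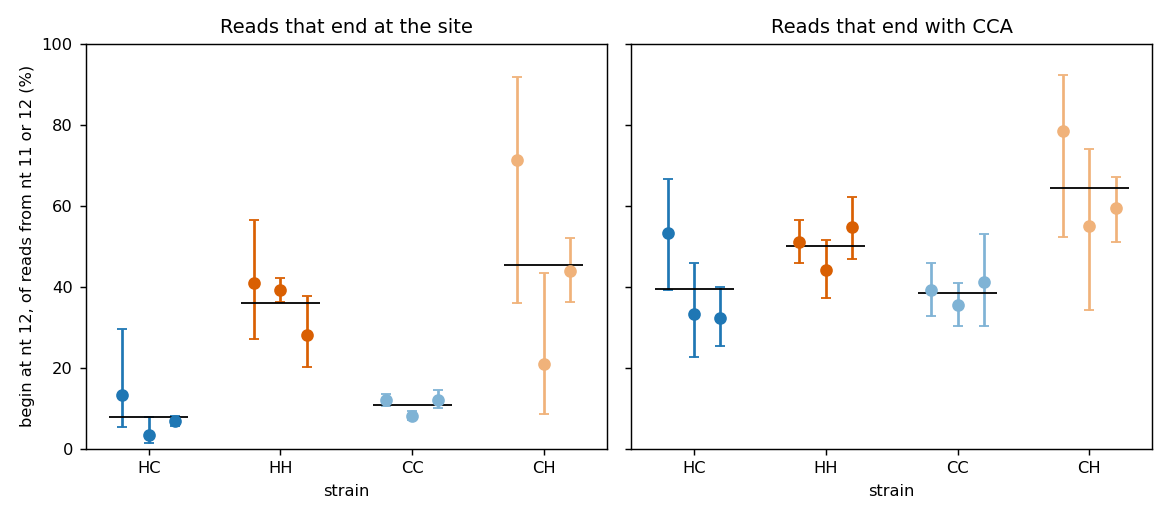
Percentage of reads that begin at nt 12 among those that begin at nt 11 or 12 (y axis), for site-ended reads (left) and CCA-ended reads (right), in the 3 libraries of each strain (points; bars are 95% Wilson intervals, black lines are means). Among site-ended reads, HC lies between 3.47% and 13.3% and HH between 28.1% and 41.0%; among CCA-ended reads they overlap.

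The same exchange of mtDNA C and H on the other nuclear genome, that of C57BL/6J, is given by CC and CH, which share no library with HC and HH. There the wild type, CC, carries mtDNA C and the MNX strain, CH, carries mtDNA H, so the wild type stands on the other side. Within the site-ended reads, nt 12 took 12%, 8.18% and 12.1% of those from nt 11 or 12 in CC and 71.4%, 21.1% and 43.9% in CH, without overlap, although CH replicates 1 and 2 held only 7 and 19 such reads. Among CCA-ended reads from nt 11 or 12, the nt 12 share did not overlap between CC and CH either, unlike between HC and HH. It averaged 38.6% ± 2.87 in CC and 64.3% ± 12.5 in CH (SD, n = 3 each), so the separation there was not limited to site-ended reads. Of the 34 pairs of neighbouring starts, 3 (8.82%) overlapped neither between HC and HH nor between CC and CH. Besides nt 11 and nt 12 of site-ended reads, these were CCA-ended pairs next to the place where the additional bases of H were set. Some site-ended pairs had no reads in a CH library and were counted as not separated between CC and CH. CCA-ended reads from the anticodon stem strand did not repeat the separation, at 9.81%, 7.55% and 6.90% of CCA-ended reads in CC and 8.93%, 9.46% and 7.91% in CH.

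In the same edgeR fit, 15 of 67 fragments (22.4%) passed the threshold between CC and CH. The fragments named above had log2 fold changes of CC against CH of 1.87 ± 1.02 for nt 1 to site, 1.09 ± 0.91 for nt 1 to 28 short and 1.17 ± 0.94 for nt 11 to site. The CCA-ended fragments from C nt 28, C nt 24 and C nt 18 had -3.65 ± 0.96, -2.29 ± 0.91 and -2.53 ± 0.88. The CCA-ended fragment from C nt 29 had -3.52 ± 1.04, against -0.84 ± 0.95 for HC and HH. Whether the difference depended on the nuclear genome was tested as the interaction, HC minus HH against CC minus CH. HC and CH are the MNX strains and HH and CC the wild types, so the same contrast compares MNX with wild type. Dependence on the nuclear genome and the origin of the mice cannot be told apart in it. EdgeR called 0 of 67 fragments (0%) at an adjusted p of 0.05. Before adjustment, 6 lay under 0.05. The counts were 1 with TMM scaling and 3 with DESeq2. For nt 1 to site the interaction was -0.91 ± 1.39 (edgeR adjusted p = 0.919), an error that leaves differences of either sign possible. CH replicates 1 and 2 held 191 and 232 reads in all, which limits this test.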

How the data were processed

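The deposited table holds raw counts of reads per unique mt-TR sequence and library, made by the authors with FastQC 0.12.1, UMI-tools 1.1.6, cutadapt 5.0 and Bowtie 1.3.1, without gaps or mismatches, against the mature mt-TR of each library's own mtDNA. Sequences that also map elsewhere in mm10 were removed. Reads crossing the runs thus match their own type by construction. Only reads of 40 to 69 nt are listed, so the library total is a length class. Every row with HC reads matched the mature C sequence. Rows with HH reads matched the mature H sequence only with the first T of the T run and the last A of the A run left out. The listed letters thus lack the additional bases of H, and HH starts and lengths rest on the dashes written before and after the letters. Of a library's reads, 0.0646% to 11.4% belonged to fragments that could be listed in only 1 of C and H.

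Homologous fragments were aligned with the 2 additional bases of H between the T and the A run. Tests were edgeR 4.0.16 (limma 3.58.1, R 4.3.3; filterByExpr, all 18 libraries, group only, Benjamini-Hochberg) and two-sided exact permutation tests over 20 arrangements. Both were run on simulated data with a spread set in advance, not that of these libraries. Those runs checked the code and do not show how the tests perform at the spread seen here. DESeq2 1.42.0, TMM, no filter, other gaps, a replicate block and leaving out libraries were alternatives. Other steps used Python 3.11.15 with pandas 2.3.3, scipy 1.17.1 and matplotlib 3.10.9. Replicates differed beyond sampling noise by chi-square tests, and none was merged. Fragments named were the 3 described at the outset, the 3 most abundant of each strain, each library's leading one, and, since none was called, the 3 of smallest p in each direction. Members and lists were chosen with earlier results of these data known.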

Additional observations from a re-analysis of the deposited data

How the results depend on the processing

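The 8 measures per library kept their direction in all 72 alternatives, but not their size. The replicate block leaves the difference itself unchanged. No exact permutation p was under 0.2, but this carries no weight. With a library left out, or with the replicate number as a block, that test cannot give less. Over single libraries left out, the difference of HC minus HH ranged from 2.81 to 30.5 percentage points for the site-ended share, 2.31 to 18.0 for nt 1 to site, 14.3 to 34.7 for nt 1 starts, 3.09 to 10.8 for nt 11 starts and -40.6 to -15.9 for the CCA end. It ranged from -8.23 to -4.34 bases for the 5′ loss, 4.56 to 10.3 for the 3′ loss and -4.11 to -2.22 nt for the length. Of the single fragments named, only the one from C nt 14 that ends 1 base short reversed, to a log2 fold change of -0.13 with gaps at the right of both runs. The count of fragments called between HC and HH, 0 by edgeR with totals as library sizes, was 6 with TMM and 8 with DESeq2. It ranged from 0 to 19 when single libraries were left out, with 19 without HC replicate 1 and 9 without HH replicate 2. It was 36 with both left out, an alternative chosen because those libraries lay among the other strain's, so its calls follow from that choice. No filter, other gaps and a fit of HC and HH alone gave 0. The interaction gave 1 call with TMM, 3 with DESeq2 and 0 with any single HC or HH library left out; leaving out CC or CH libraries was not run. The difference in the nt 12 share, -28.3 percentage points, was -10.5 in CCA-ended reads and -0.41 with gaps at the left of both runs, which matches reads by the number of T, and ranged from -32.2 to -25.8 without single libraries. With the replicate number as a block, edgeR called 0 fragments, and 17 of 67 had an unadjusted p under 0.05. Same-numbered libraries deviated together for replicates 1 and 2 (correlation over 67 fragments 0.73 and 0.50) but not 3 (-0.37). Between differently numbered libraries the correlation ranged from -0.77 to 0.68. With so few libraries, these values cannot settle whether the numbers pair the samples. Depth limits HC replicate 1 most, and nothing is given here on reads under 40 nt or on whole mt-TR.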

Other observations

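Reads from nt 1 that end 4 to 18 bases short, between the site and the CCA, made up 6.41%, 1.81% and 2.56% of HC replicates 1 to 3 and 3.85%, 3.12% and 6.09% of HH replicates 1 to 3, which overlapped. Of the 9 tested fragments that end there, edgeR called 0 and 1 had an unadjusted p under 0.05, and 4 had a positive and 5 a negative log2 fold change of HC against HH, with a median of -0.32 against -0.37 over all 67. The fragment from nt 1 that ends 14 bases short, chosen after its values were seen, made up 0.409%, 0.194% and 0.190% of HC replicates 1 to 3 and 0.969%, 0.591% and 1.62% of HH replicates 1 to 3. Its log2 fold change was -2.13 ± 0.84 for HC against HH and 1.23 ± 0.85 for CC against CH, and the interaction of -3.37 ± 1.19 had an unadjusted p of 0.00786 and an adjusted p of 0.307 in edgeR. It therefore did not pass the threshold in this fit. With TMM scaling, edgeR called 1 of the 9 fragments of this end class in the interaction, with a negative value (edgeR adjusted p = 0.0333).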
